A study of Mus musculus with 120 samples.

Results

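Kv4 channels carry the A-type potassium current that operates below spike threshold. Of the 16538 genes in the table, 8 that encode pore or accessory subunits of these channels were taken as members. They were chosen by name and function, with earlier results of these data known, and a further Kv4 pore gene in the table, Kcnd1, is not among them. Kcnd2 and Kcnd3 encode the pores Kv4.2 and Kv4.3, Kcnip1, Kcnip2, Kcnip3 and Kcnip4 encode the KChIP calcium sensors, and Dpp6 and Dpp10 encode the DPP subunits. All 8 were measured and all 8 passed the filter on low counts. They are described here across the nuclei of the mouse thalamus, in bulk RNA-seq of 120 libraries of projection neurons filled by tracer injected into a target region and picked by hand.

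The libraries fall into 24 groups of nucleus, tracer and injected region, covering 22 nuclei. The 7 striatum-labelled nuclei, traced with rAAV2retro, a viral vector that expressed GFP or tdTom after uptake at axon endings, were PVT (3 libraries) and IMD, PCN, CM, CL, PF and SPA (4 each). The 15 cortex-labelled nuclei were traced with DiI, a lipophilic dye. LP (9) and LGd (5) were labelled from primary visual cortex, PO (7) and VB (4) from barrel cortex, and VM (6), VL (6) and VA (8) from primary motor cortex. AD (4), AV (8) and LD (5) were labelled from the region coded Rs, AM (4), RE (8) and IAD (3) from Cg, VPMpc (6) from insula and MD (6) from lc_Orb. A further 3 CM libraries were traced with DiI from the striatum and 1 AM library with AAV from Cg. Outside those 2 groups tracer and injected region cannot be told apart. All animals were recorded as wild type except in 1 VA library, recorded as 33.7-Gad2. Recorded ages ran from 55 to 447, with a median of 98 and no unit given, and 7 libraries held an animal over 400 (3 in AV, 2 in LD and 2 in VPMpc). Of the 30 libraries labelled from striatum 23 came from females and 7 from males, and of the 90 labelled from cortex 24 came from females, 65 from males and 1 from both. In all, 13 libraries pooled cells of several animals.

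Total counts ran from 8159497 to 26444831 per library, from 14 to 200 cells (median 60.5). The thalamic neuron markers Slc17a6, Tcf7l2 and Snap25 summed to 7024 CPM or more in every library. The 4 oligodendrocyte markers summed to 8.81 to 48.2 CPM in the 30 libraries labelled from striatum (median 23.9) and 0.141 to 3183 CPM in the 90 labelled from cortex (median 19.1), and 12 libraries labelled from cortex were over 200 CPM. Of the 3 habenula markers only Gpr151 was measured, at 0 to 60.2 CPM in libraries labelled from striatum (median 12.97; 1 of 30 at 0) and 0 to 42.3 CPM in those labelled from cortex (median 0.635; 26 of 90 at 0). Of the 3 microglial markers only Csf1r was measured, at 0 in 17 of 30 libraries labelled from striatum and 53 of 90 labelled from cortex. The listed markers of GABAergic neurons, astrocytes, endothelium and choroid plexus are not analysed here.

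Kv4 channels open in response to small depolarizations, inactivate within a fraction of a second and delay the next spike, and in thalamocortical neurons the A-type current opposes the low-threshold calcium current. KChIPs bind the channel's cytoplasmic end, raise its number at the cell surface and slow its inactivation. DPP6 and DPP10 are single-pass membrane proteins related to dipeptidyl peptidases that lack enzyme activity, help the channel reach the surface and speed its gating. KChIP3 is the protein also known as DREAM or calsenilin, which can bind DNA as a repressor.

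Kcnd3 and Kcnip1 gave the largest called differences between striatum-labelled and cortex-labelled nuclei, in opposite directions, so the sequences at their annotated starts are shown. Each is the RefSeq sequence (GRCm38.p6) from 250 bases before to 50 bases after a start, on the gene's strand, with GGGCGG or its reverse complement in capitals. Kcnd3 lies on chromosome 3 (mm10 chr3:105452330-105674002, plus strand) and has 1 listed start. That gene interval is from GENCODE M21, and the RefSeq sequence shown for Kcnd3 ends before it begins. Kcnip1 lies on chromosome 11 (mm10 chr11:33629339-33993152, minus strand) and has 3 listed starts.
Kcnd3 start, chr3:105451640-105451939, plus strand: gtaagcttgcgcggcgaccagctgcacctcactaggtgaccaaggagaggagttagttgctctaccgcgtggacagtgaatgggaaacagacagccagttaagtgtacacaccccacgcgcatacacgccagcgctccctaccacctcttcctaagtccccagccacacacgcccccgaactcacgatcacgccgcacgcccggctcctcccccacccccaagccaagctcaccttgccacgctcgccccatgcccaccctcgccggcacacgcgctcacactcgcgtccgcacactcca
Kcnip1, the first start, chr11:33993144-33993443, minus strand: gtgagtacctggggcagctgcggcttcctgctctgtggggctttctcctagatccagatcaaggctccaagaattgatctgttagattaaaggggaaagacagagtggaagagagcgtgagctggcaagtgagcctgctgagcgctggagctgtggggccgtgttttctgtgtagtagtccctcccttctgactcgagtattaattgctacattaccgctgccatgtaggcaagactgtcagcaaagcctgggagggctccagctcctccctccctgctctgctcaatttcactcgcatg
Kcnip1, the second start, chr11:33843637-33843936, minus strand: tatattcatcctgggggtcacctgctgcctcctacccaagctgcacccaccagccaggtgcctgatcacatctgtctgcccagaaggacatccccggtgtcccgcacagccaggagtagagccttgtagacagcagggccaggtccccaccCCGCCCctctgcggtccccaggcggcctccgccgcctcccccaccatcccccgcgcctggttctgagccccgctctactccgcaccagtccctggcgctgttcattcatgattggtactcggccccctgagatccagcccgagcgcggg
Kcnip1, the third start, chr11:33680633-33680932, minus strand: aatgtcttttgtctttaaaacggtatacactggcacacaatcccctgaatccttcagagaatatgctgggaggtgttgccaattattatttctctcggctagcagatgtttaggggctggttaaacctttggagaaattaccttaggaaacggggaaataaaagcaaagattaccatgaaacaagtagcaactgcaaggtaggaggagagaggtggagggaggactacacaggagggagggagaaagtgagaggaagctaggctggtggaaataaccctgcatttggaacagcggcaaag
The Kcnd3 start held 64.0% G and C and 25 CpG pairs, against a median of 52.7% and 7 over the 32851 promoters of the table. The 3 Kcnip1 starts held 54.3, 66.7 and 45.3% G and C, with 7, 16 and 4 CpG pairs. GGGCGG on either strand was found once at the second Kcnip1 start and at neither of the other Kcnip1 starts nor at Kcnd3, and 35.7% of all promoters hold it. The letters TATAAA and TGACGTCA, on either strand, were at none of the 4 starts, and 13.6% and 1.79% of all promoters hold them. CANNTG, which reads the same on both strands in these letters, was found at all 4 starts (1, 2, 3 and 3 times), as in 72.3% of promoters. Counts per gene do not show which start was used.

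All 8 genes differed between the 22 nuclei. In edgeR's quasi-likelihood F test across 22 nuclei, with Benjamini-Hochberg adjustment over 16527 genes, each had an adjusted p under 0.05, as did 55.1% of all genes tested. The F values ranked Kcnip3 248th, Kcnd3 417th, Kcnip4 625th, Kcnip1 1037th, Kcnd2 1324th, Dpp6 1458th, Dpp10 2269th and Kcnip2 5171st. The median F of the 8 was 6.74, against 1.97 over all genes. The adjusted p was lowest for Kcnip3 (2.91e-21) and highest for Kcnip2 (0.000562). Levels below are in CPM, counts scaled to the library total, as mean ± SD over libraries, with CM standing for its AAV-traced and AM for its DiI-traced libraries unless stated. In bulk samples fewer cells with a transcript and less transcript per cell cannot be told apart.

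Kcnd2, the Kv4.2 pore gene on chromosome 6 (mm10 chr6:21215503-21729805, plus strand), was present in every library at 90.2 CPM or more. It was highest in VPMpc (340.5 ± 29.7 CPM, n = 6), IAD (337 ± 24.9, n = 3) and AM (336 ± 110.2, n = 4), and lowest in AD (129 ± 12.1, n = 4) and RE (121 ± 21.9, n = 8). Between these ends the order had no clear step: no neighbours among the 22 ordered nuclei differed by more than the larger of their SDs. AD libraries held 135, 131, 112 and 139 CPM. RE libraries ran from 92.4 to 158 CPM with a median of 118. Every AD and RE library lay below every library of the other nuclei, except those of AV, LP, LGd and LD, whose ranges reached down into theirs, and 1 DiI-traced CM library at 133 CPM.

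Kcnd3, the Kv4.3 pore gene, spanned a wider range than Kcnd2. It was highest in VB (444 ± 53.9 CPM, n = 4), LGd (438 ± 63.8, n = 5), LD (428 ± 114, n = 5) and AV (395 ± 119.5, n = 8). It was lowest in CL (107 ± 25.2, n = 4) and IMD (95.6 ± 18.3, n = 4). VB libraries held 421, 517, 449.7 and 391 CPM and LGd libraries 365, 449, 379, 488 and 508 CPM. IMD libraries held 99.8, 71.4, 115 and 95.6 CPM and CL libraries 80.7, 119.6, 93.2 and 136 CPM. All IMD and CL libraries, at 136 CPM or less, lay below all VB and LGd libraries, at 365 CPM or more. The striatum-labelled nuclei had means from 95.6 CPM in IMD to 142 CPM in PCN, and the cortex-labelled nuclei VM (144 ± 49.5, n = 6), RE (145 ± 20.1, n = 8) and VPMpc (145 ± 69.4, n = 6) lay just above them. The PVT libraries disagreed, at 192, 39.3 and 189 CPM (140 ± 87.4, n = 3), so the place of PVT below those cortical means rests on replicate 2. In the order of means 1 step exceeded the larger SD, that between PO (293 ± 37.0, n = 7) and AD (249 ± 33.9, n = 4). In 165 exonic bases Kcnd3 overlaps the antisense gene Kcnd3os, and the kit does not mark strand.

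**Figure D1:**
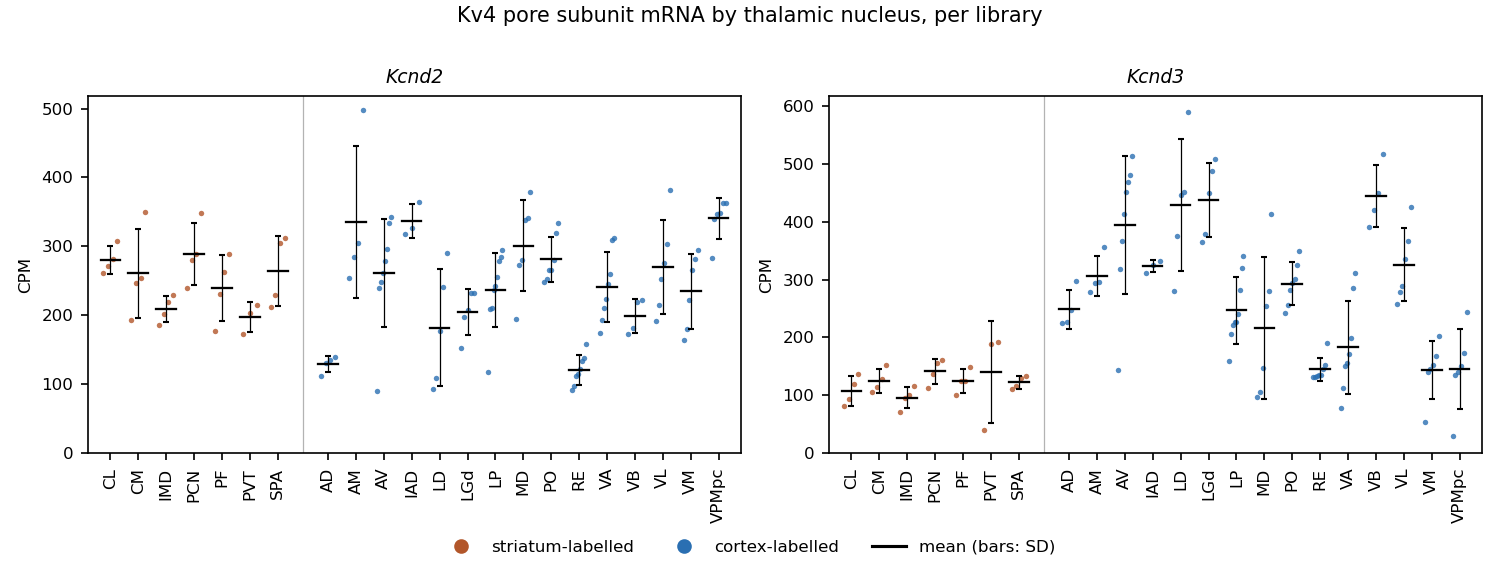
Kcnd2 (left) and Kcnd3 (right) in CPM on a linear axis, with 1 point per library, a line at the mean of each nucleus and bars of 1 SD; striatum-labelled nuclei are left of the divider and cortex-labelled nuclei right of it. Kcnd2 is lowest in RE and AD. Kcnd3 means are 142 CPM or lower in every striatum-labelled nucleus, with PVT libraries from 39.3 to 192 CPM, and reach 444 CPM in VB.

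Per kilobase of exon Kcnd2 and Kcnd3 can be set against each other. Kcnd3 made up 17.02% (CL) to 26.6% (PVT) of the summed Kcnd2 and Kcnd3 level in striatum-labelled nuclei, with a median of 20.8%. In cortex-labelled nuclei it made up 18.2% (VPMpc) to 56.8% (LD), with a median of 36.4%. Its mean share was over 50% in AD (50.7%, libraries 47.3 to 54.3%), LD (56.8%, 45.6 to 74.5%), LGd (53.5%, 45.8 to 61.3%) and VB (54.5%, 48.9 to 58.2%). Libraries lay on both sides of 50% in each of them. In each of them the mean Kcnd2 level was under the median of the nuclei, 251 CPM, with 129 CPM in AD, 182 in LD, 199 in VB and 205 in LGd. Kcnd3 was high in VB (444 CPM), LGd (438) and LD (428), and AD had 249 CPM of it, against a median of the nuclei of 199.8 CPM. AV, with 395 CPM of Kcnd3 and 261 CPM of Kcnd2, had a share of 44.9%. The summed Kcnd2 and Kcnd3 level was lowest in RE (38.6 ± 4.99 CPM per kb, n = 8). It was highest in IAD (99.03 ± 3.78, n = 3) and AM (97.1 ± 21.4, n = 4). Kcnd1, the other Kv4 pore gene, is not in this sum.

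Kcnip4, on chromosome 5 (mm10 chr5:48389502-49524907, minus strand), was the main KChIP transcript of every nucleus. Per kilobase it made up 64.4% (LGd) to 99.9% (AD) of the 4 KChIPs, and its median share was 76.7% in striatum-labelled and 85.8% in cortex-labelled nuclei. It was highest in MD (739 ± 357 CPM, n = 6), followed by VPMpc (566 ± 183, n = 6), LD (524 ± 200, n = 5) and AV (521 ± 139, n = 8). It was lowest in PF (199 ± 18.1, n = 4) and PVT (189 ± 32.8, n = 3). MD libraries ran from 248 to 1100.2 CPM with a median of 861 CPM, the widest spread of any nucleus for this gene. PVT libraries held 201, 152 and 214 CPM and PF libraries 182, 186, 214 and 216 CPM. All of them lay below the lowest MD library. In 267 exonic bases Kcnip4 overlaps 2 genes on the other strand, and no neighbours in the order of means differed by more than the larger SD.

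Kcnip3, on chromosome 2 (mm10 chr2:127456498-127522094, minus strand), separated AD from all other nuclei. MD had 268 ± 173 CPM (n = 6), LGd 192 ± 50.3 (n = 5), PO 178 ± 37.0 (n = 7), VB 154 ± 89.3 (n = 4) and LP 149.6 ± 68.2 (n = 9). RE had 14.1 ± 7.98 CPM (n = 8) and PF 11.95 ± 5.91 (n = 4). AD had almost none: its 4 libraries held 0, 0.0857, 0.315 and 0 CPM, a total of 5 counts. The gap between AD and PF was the 1 step in the order of means that exceeded the larger SD. PVT libraries disagreed, at 1.71, 65.4 and 2.38 CPM. The single AAV-traced AM library held 0.712 CPM, against 15.7, 40.5, 104 and 50.5 CPM in the DiI-traced AM libraries, a difference with no replicate on the AAV side.

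Kcnip1 was counted in every library labelled from striatum and was at 0 in many of those labelled from cortex. It was highest in PVT (78.3 ± 31.6 CPM, n = 3), IMD (68.9 ± 19.0, n = 4) and SPA (65.1 ± 12.3, n = 4), and the step from SPA to CM (37.9 ± 15.3, n = 4) was the only one larger than the larger SD. PF had 33.8 ± 6.76, CL 28.1 ± 8.02 and PCN 26.7 ± 15.9 CPM (n = 4 each). Each library of the 7 striatum-labelled nuclei held at least 3.68 CPM. Among cortex-labelled nuclei RE stood highest, at 18.4 ± 7.96 CPM (n = 8), with libraries from 2.58 to 27.2 CPM. AD, LD and LGd held no read in any of their 4, 5 and 5 libraries, which by a floor of 3 counts over a group's libraries allows up to 0.0677, 0.0551 and 0.0486 CPM. The other cortex-labelled nuclei averaged 7.47 CPM or less, and in MD, LP and PO single libraries stood out. In MD 1 library held 30.3 CPM and the median was 2.73 CPM; in LP 1 held 25.6 CPM and 7 of 9 held none; in PO 1 held 10.9 CPM and the median was 0 CPM.

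Kcnip2, on chromosome 19 (mm10 chr19:45791839-45816061, minus strand), was low throughout. It was highest in RE (16.3 ± 13.7 CPM, n = 8), IMD (11.995 ± 4.80, n = 4) and CM (9.80 ± 10.1, n = 4), and VB held no read in 4 libraries. RE libraries ran from 2.19 to 46.1 CPM with a median of 13.5. CM libraries held 9.69, 5.07, 0.533 and 23.9 CPM, so that libraries of 1 nucleus differed widely. Its SD between nuclei, 4.27 CPM, was smaller than its typical SD within a nucleus, 5.30 CPM, and no neighbours in the order of means were separated.

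**Figure D2:**
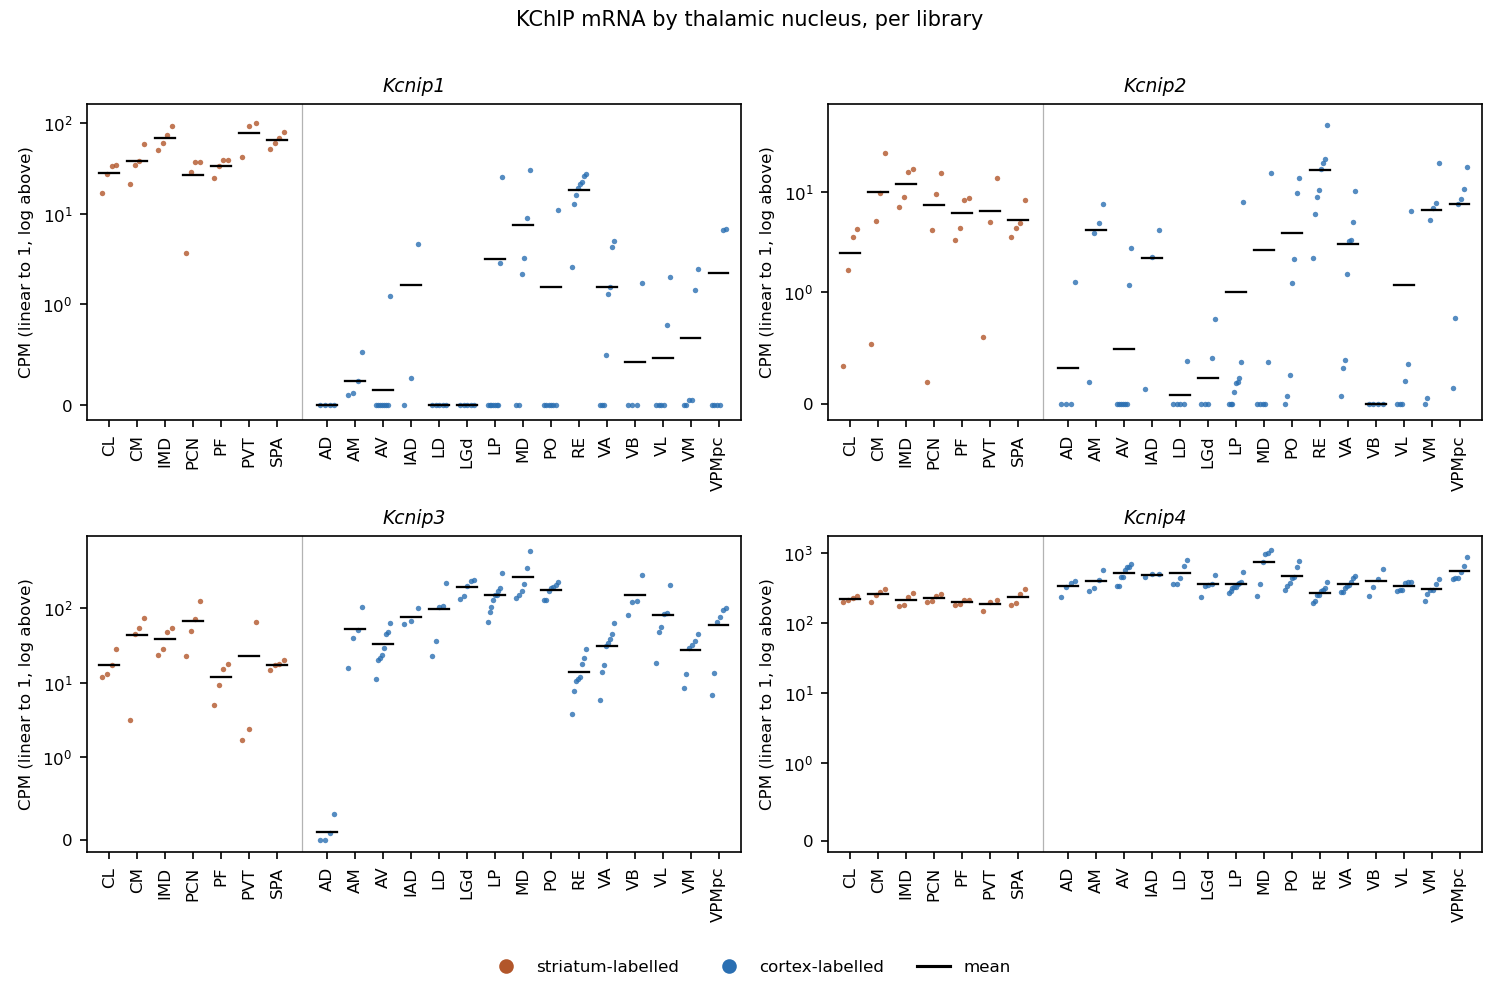
The 4 KChIP genes in CPM, on an axis that is linear up to 1 CPM and logarithmic above, with 1 point per library and a line at each nucleus mean; striatum-labelled nuclei are left of the divider and cortex-labelled nuclei right of it. Kcnip1 is at 3.68 CPM or more in every striatum-labelled library and at 0 in AD, LD and LGd, Kcnip3 is nearly at 0 in AD, and the Kcnip4 mean is the highest of the 4 in every nucleus.

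The makeup of the KChIP pool differed between nuclei with these genes. Per kilobase Kcnip1 was 5.05% (PCN) to 17.1% (PVT) of the pool in striatum-labelled nuclei and 0% (AD) to 3.65% (RE) in cortex-labelled ones. Kcnip3 was 0.0267% in AD and 35.5% in LGd. Kcnip2 reached at most 5.31%, in RE. The summed pool was smallest in PF (65.6 ± 6.18 CPM per kb, n = 4) and largest in MD (281 ± 119, n = 6).

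**Figure D3:**
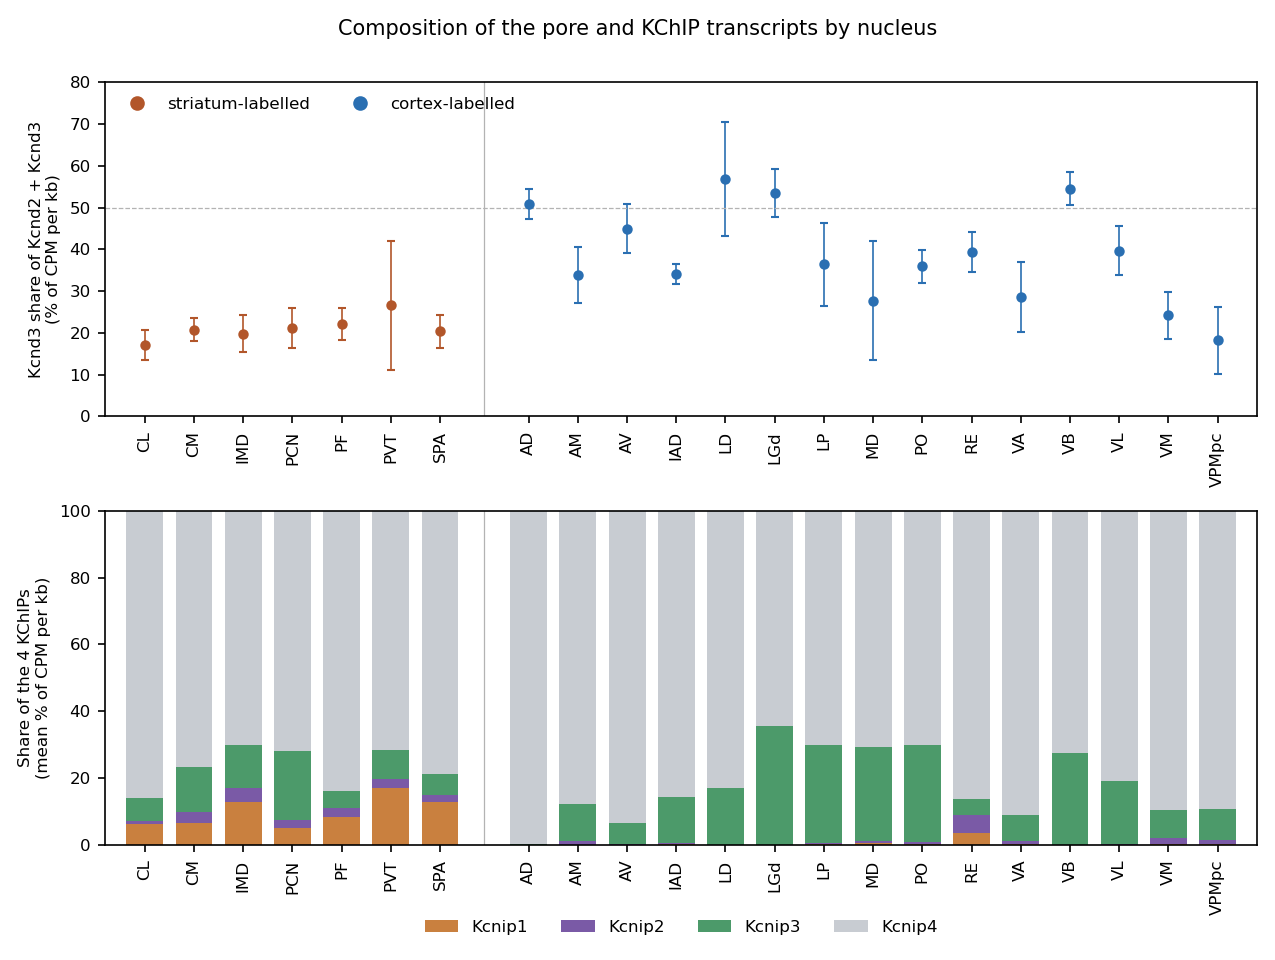
Top, the share of Kcnd3 in the summed Kcnd2 and Kcnd3 level per kilobase of exon, as mean and SD over the libraries of each nucleus, with a dashed line at 50%; bottom, the mean shares of the 4 KChIPs. The mean Kcnd3 share is above 50% in AD, LD, LGd and VB, and Kcnip4 fills 64.4 to 99.9% of the KChIP bars.

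Dpp6, on chromosome 5 (mm10 chr5:26817203-27727505, plus strand), was highest in the 3 nuclei labelled from motor cortex, VL (364 ± 62.4 CPM, n = 6), VM (319 ± 95.9, n = 6) and VA (311 ± 67.0, n = 8), and in LGd (305 ± 28.3, n = 5). It was lowest in SPA (108 ± 21.5, n = 4), whose libraries held 98.3, 84.5, 116 and 134 CPM. The step from SPA to IMD (160.4 ± 24.9, n = 4) was the only one larger than the larger SD. VL libraries ran from 321 to 484 CPM with a median of 343. Every VL library lay above every SPA library, and the SPA library with 84.5 CPM was the lowest of all.

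Dpp10, on chromosome 1 (mm10 chr1:123321471-124045559, minus strand), varied least, with a ratio of 2.39 between its highest and lowest nucleus means. It was highest in IAD (527 ± 5.70 CPM, n = 3) and VPMpc (498 ± 94.7, n = 6) and lowest in IMD (247 ± 18.7, n = 4) and LP (220.0 ± 76.5, n = 9). IAD libraries held 522, 533 and 525 CPM. IMD libraries held 263, 244, 222 and 259.7 CPM. LP libraries ran from 152 to 406 CPM with a median of 206, so that the LP libraries other than the highest lay under the IMD range or within it. Per kilobase Dpp6 made up 33.6% (IAD) to 57.1% (VL) of the DPP pair, and exceeded 50% in 1 striatum-labelled nucleus, PVT (54.0%), and in 7 cortex-labelled ones.

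**Figure D4:**
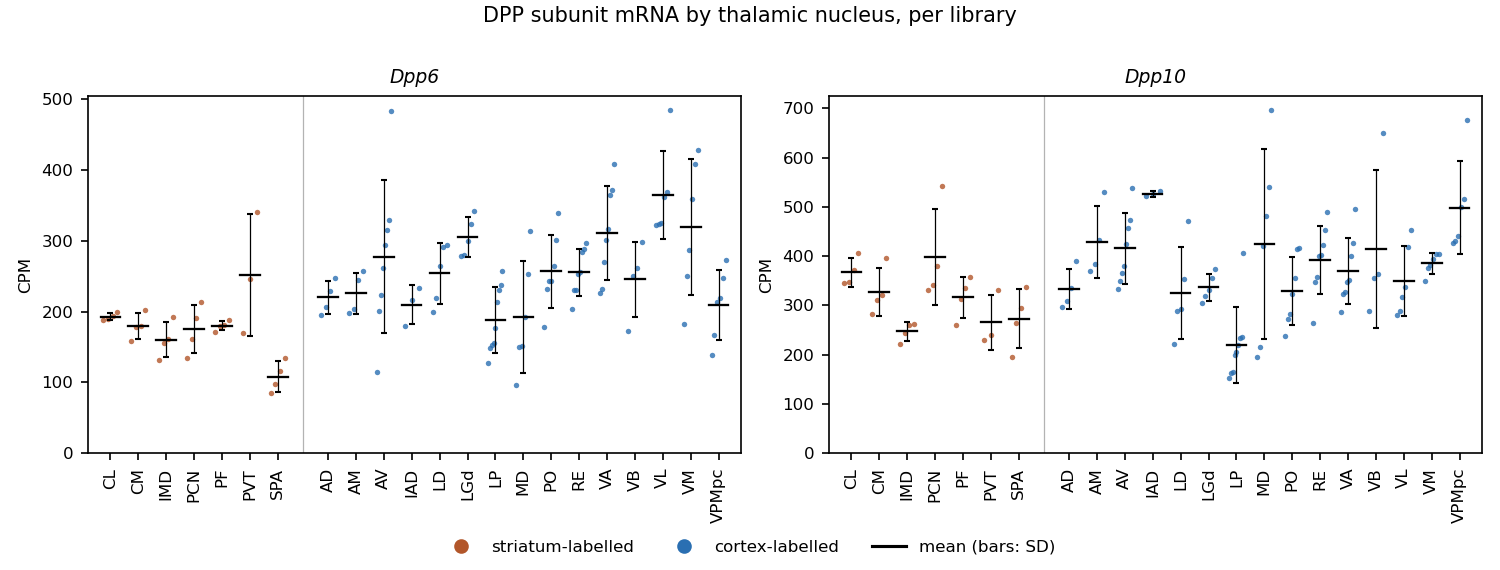
Dpp6 (left) and Dpp10 (right) in CPM on a linear axis, with 1 point per library, a line at each nucleus mean and bars of 1 SD; striatum-labelled nuclei are left of the divider and cortex-labelled nuclei right of it. Dpp6 is highest in VL and lowest in SPA, and Dpp10 spans a narrower range, from 220.0 CPM in LP to 527 CPM in IAD.

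Striatum-labelled nuclei had more Kcnip1 and less Kcnd3, Kcnip4 and Dpp6 than cortex-labelled nuclei. Counts were summed per nucleus, and the 7 sums were tested against the 15 with edgeR's quasi-likelihood test. Of 15440 genes 18.4% were called, 8.58% higher and 9.8% lower, and 1 of the 8 genes was higher and 3 were lower. The median log2 difference was -0.36 for the 8 and -0.08 for all genes. The means and SDs that follow are over nuclei, each with the CPM of its summed counts.

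Kcnip1 rose to 50.4 ± 22.3 CPM in the 7 striatum-labelled nuclei (28.2 to 79.6), against 2.49 ± 4.93 CPM in the 15 cortex-labelled ones (0 to 19.5), with a log2 difference of 4.33 (SE 0.88, adjusted p = 0.00150). No cortex-labelled nucleus reached the lowest striatum-labelled one. Kcnd3 fell to 128 ± 16.9 CPM (101 to 148) in striatum-labelled nuclei, against 287 ± 113 CPM (138 to 448) in cortex-labelled ones, a log2 difference of -1.17 (SE 0.23, adjusted p = 0.00135). Kcnip4 fell to 230.0 ± 23.8 CPM (194 to 268) in striatum-labelled nuclei, against 416 ± 101 CPM (269 to 637) in cortex-labelled ones, a log2 difference of -0.86 (SE 0.15, adjusted p = 0.000347). For Kcnip4 the ranges of the 2 classes came within 268 and 269 CPM of each other without overlap, and for Kcnd3 they overlapped between 138 and 148 CPM. Dpp6 fell to 185 ± 40.9 CPM in striatum-labelled nuclei, against 259 ± 56.9 CPM in cortex-labelled ones, a log2 difference of -0.49 (SE 0.15, adjusted p = 0.0236), with overlapping ranges.

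The other 4 genes did not pass the threshold. Kcnd2 had 257 ± 34.99 CPM in striatum-labelled and 243 ± 68.3 CPM in cortex-labelled nuclei (log2 difference 0.08, SE 0.17). Dpp10 had 325 ± 54.4 CPM in striatum-labelled and 380.2 ± 77.1 CPM in cortex-labelled nuclei (log2 difference -0.23, SE 0.13). Kcnip2 (log2 difference 1.17, SE 0.77) and Kcnip3 (-1.53, SE 0.66) had errors too large for a call. Kcnip3 passed without AD among the cortex-labelled nuclei (-1.63, adjusted p = 0.0208), and Kcnip2 passed when limma was run on the nucleus means of log2 CPM (2.68, adjusted p = 0.0115).

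Dpp6 missed the threshold when IMD (adjusted p = 0.0550) or SPA (0.0536) was left out. On 2 amplification dates both classes were present, with PVT and IMD or the DiI-traced CM on the striatal side and VA, VL and VM on the cortical side. Counts were summed per nucleus and date, so VA and VL, present on both dates, each entered as separate points. Within those dates 2 of the 4 calls held, Kcnip1 and Dpp6. Kcnip1 ran there from 35.1 to 100.2 CPM in 10 striatum-labelled libraries, against 0 to 4.96 CPM in 16 cortex-labelled ones. Kcnd3 (log2 difference -0.74, adjusted p = 0.271) and Kcnip4 (-0.44, adjusted p = 0.101) did not pass within those dates, whose cortical side holds the 3 motor nuclei alone. With CM taken from its DiI libraries the same number of genes, 4, was called. Gpr151 and sex moved with class as given above, and their part in these differences was not tested.

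**Figure D5:**
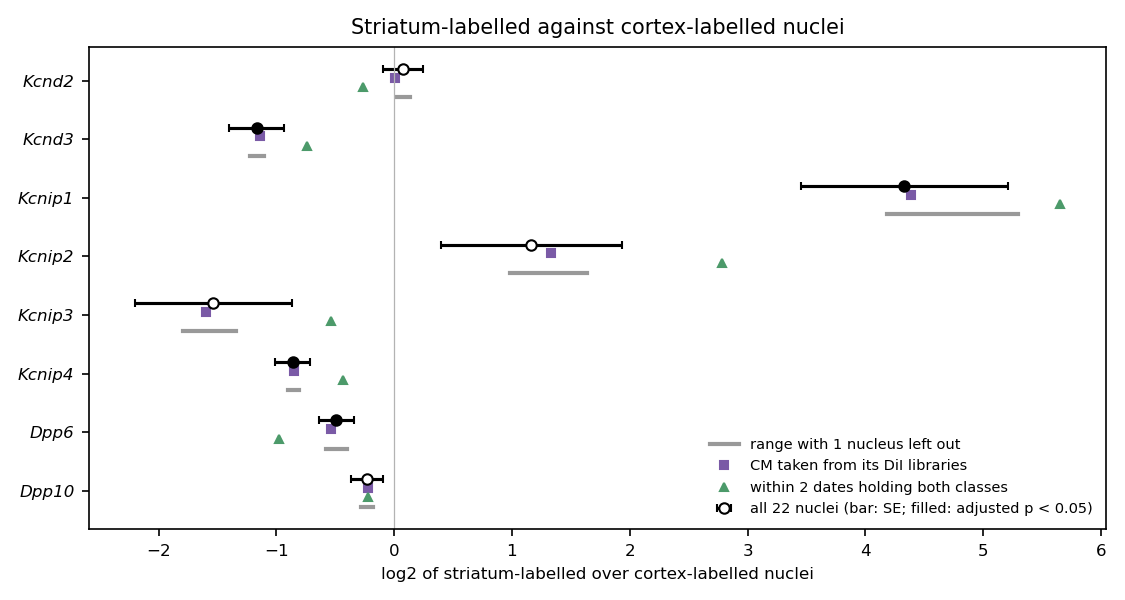
The log2 difference of the 8 genes between striatum-labelled and cortex-labelled nuclei (circles with bars of 1 SE, filled where the adjusted p was under 0.05), with the same difference when CM comes from its DiI libraries (squares), within the 2 dates that hold both classes (triangles), and its range when 1 nucleus is left out (grey lines). Kcnip1 lies to the right at 4.33, and Kcnd3 at -1.17, Kcnip4 at -0.86 and Dpp6 at -0.49 lie to the left of 0.

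The tracer could be compared within CM alone, between 4 AAV-traced and 3 DiI-traced libraries from the same target. None of the 8 genes was called, where edgeR called 0.00605% of all genes, and DESeq2 called 473 genes and none of the 8. At an unadjusted p under 0.05 edgeR had 1073 genes and 1 of the 8, Kcnd2, with 261 ± 65.0 CPM in AAV-traced and 173 ± 44.1 CPM in DiI-traced libraries (log2 difference 0.59, SE 0.27, unadjusted p = 0.0301 in that fit). Kcnip1 had 37.9 ± 15.3 CPM in AAV-traced CM libraries (58.3, 37.7, 21.4 and 34.1) and 50.1 ± 18.4 CPM in DiI-traced ones (70.7, 44.6 and 35.1). In AM, where the AAV was used once, Kcnip1 held no read in the AAV-traced library and 0.236, 0.120, 0.525 and 0.0996 CPM in the DiI-traced ones. Kcnip1 was high in both tracer groups of CM and at or near 0 in both of AM. The AAV-traced AM library lay above the DiI-traced ones in Kcnip4 (967 CPM, against 287 to 573) and Kcnd2 (532, against 255 to 498). It also lay above them in Dpp10 (590, against 370 to 530) and Dpp6 (311, against 198 to 257). It lay below them in Kcnip3 and Kcnip2 (0, against 0.197 to 7.49), and within their range in Kcnd3. With no replicate on the AAV side these differences were not tested.

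Nuclei that share a target differed in some of the 8 genes. Over 15 comparisons, 11 between nuclei of the same cortical target and 4 among striatum-labelled nuclei, 16 of 120 gene-by-pair tests were called, 5 higher and 11 lower in the nucleus named first, against 2.65% of gene-by-pair tests over all genes. The comparisons share libraries and are not independent, and 7 of the 15 called none of the 8 genes. By gene, Kcnd3 and Kcnip3 were called in 4 pairs each, Kcnd2 in 3, Dpp6 in 2, Kcnip1, Kcnip2 and Dpp10 in 1 each and Kcnip4 in none.

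Among the retrosplenial-coded (Rs) nuclei, Kcnip3 fell in AD. AD held 0.1001 ± 0.149 CPM, against 33.0 ± 17.7 CPM in AV and 97.7 ± 76.7 CPM in LD, which are 329.7 and 976 times the AD mean. The log2 difference was -8.13 against AV (SE 0.97, adjusted p = 7.55e-11; 5.69% of genes called) and -9.70 against LD (SE 1.03, adjusted p = 4.25e-13; 6.73% called). The lowest AV library held 11.1 CPM and the lowest LD library 22.8 CPM, so no AD library overlapped either. On the date that AD shares with 5 AV libraries, AV averaged 34.0 CPM, and AD and LD shared no date. Kcnd2 also fell in AD against AV, with 129 ± 12.1 CPM in AD and 261 ± 78.8 CPM in AV (log2 -1.02, SE 0.22, adjusted p = 0.00084), and 1 AV library, at 90.2 CPM, lay below all of AD. With AD and AV fitted alone the Kcnd2 difference had an adjusted p of 0.0539. LD against AV had none called by edgeR, where 5.5% of genes were, 2 of the 8 at an unadjusted p under 0.05 and 3 by DESeq2. That 5.5% holds for edgeR's adjusted p alone, and the share of all genes at an unadjusted p or by DESeq2 is not given here. Kcnip3 had 97.7 ± 76.7 CPM in LD and 33.0 ± 17.7 CPM in AV (log2 1.57, adjusted p = 0.0558).

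Among the nuclei labelled from Cg, RE had the least of both Kcnd2 and Kcnd3. Kcnd2 rose to 336 ± 110.2 CPM in AM, against 121 ± 21.9 CPM in RE (log2 1.47, SE 0.21, adjusted p = 1.06e-07; 1.84% of genes called). Kcnd3 rose to 306 ± 34.1 CPM in AM, against 145 ± 20.1 CPM in RE (log2 1.08, SE 0.28, adjusted p = 0.0148). The AM libraries, at 255 CPM or more for Kcnd2 and 278 CPM or more for Kcnd3, did not overlap RE. Without AM replicate 1 the Kcnd3 difference had an adjusted p of 0.0703. On the shared date the 4 AM libraries averaged 336 and 306 CPM for Kcnd2 and Kcnd3, against 110.2 and 152 CPM in 4 RE libraries.

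RE against IAD showed the same pores, with 1.33% of genes called. Kcnd2 fell to 121 ± 21.9 CPM in RE, against 337 ± 24.9 CPM in IAD (log2 -1.47, SE 0.22, adjusted p = 8.80e-07). Kcnd3 fell to 145 ± 20.1 CPM in RE, against 323 ± 10.4 CPM in IAD (log2 -1.16, SE 0.30, adjusted p = 0.0211), and missed the threshold without any 1 of the 3 IAD libraries (adjusted p 0.0784, 0.127 and 0.104 without replicates 1, 2 and 3). Kcnip3 fell to 14.1 ± 7.98 CPM in RE, against 77.0 ± 20.4 CPM in IAD (log2 -2.44, SE 0.58, adjusted p = 0.00711; 0.0994 without IAD replicate 2). The RE and IAD libraries did not overlap in any of the 3 genes, and the groups shared no amplification date. RE serves in both comparisons, so they are not independent.

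AM against RE had a further call for Kcnip3, with 52.8 ± 37.3 CPM in AM and 14.1 ± 7.98 CPM in RE (log2 1.90, SE 0.55, adjusted p = 0.0425). Their ranges overlapped, and the call was lost in 13 of 20 recomputations, among them without AM replicate 3 (log2 1.33, adjusted p = 0.575), 2 (0.0552) or 4 (0.0814), or without RE replicate 1, 2, 3, 4, 7 or 8 (0.0519 to 0.0977). Kcnip1 held 0.245 ± 0.196 CPM in AM and 18.4 ± 7.96 CPM in RE, with no overlap, but was not called (log2 -6.20, adjusted p = 0.139). The 4 AM libraries and RE libraries 1 to 4 came from the same animals. With the replicate number as a block over all 24 groups Kcnip1 was called (log2 -6.68, adjusted p = 0.0444). That block also joins same-numbered libraries of other nuclei and animals, so it is no test of AM and RE paired by animal. On the shared date AM held 0.0996 to 0.525 CPM of Kcnip1, against 12.8 to 27.2 CPM in RE. AM against IAD had none of the 8 called and none at an unadjusted p under 0.05, with edgeR calling 0 genes in all (504 at an unadjusted p under 0.05) and DESeq2 240.

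Among nuclei labelled from visual cortex, LP had less of both DPP genes and of Kcnd3 than LGd, where 3.62% of genes were called. Dpp6 fell to 189 ± 46.6 CPM in LP, against 305 ± 28.3 CPM in LGd (log2 -0.69, SE 0.19, adjusted p = 0.0215). Dpp10 fell to 220.0 ± 76.5 CPM in LP, against 337 ± 27.9 CPM in LGd (log2 -0.61, SE 0.18, adjusted p = 0.0308). Kcnd3 fell to 247 ± 57.5 CPM in LP, against 438 ± 63.8 CPM in LGd (log2 -0.83, SE 0.26, adjusted p = 0.0468). LP and LGd libraries did not overlap for Kcnd3 and Dpp6, and 1 LP library, at 406 CPM, lay above LGd for Dpp10. On the shared date 7 LP libraries averaged 223, 196 and 203 CPM for Kcnd3, Dpp6 and Dpp10, against 438, 305 and 337 CPM in LGd.

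Each of these calls was close to the threshold. Kcnd3 missed it without any 1 LGd library (adjusted p 0.0544 to 0.126) and without LP replicate 3, 5, 6, 7, 8 or 9 (up to 0.0931). Dpp6 missed it without LGd replicate 2 (0.0585) or 5 (0.0737), without LP replicate 9 (0.0542) and without the libraries high in oligodendrocyte markers, a choice made after the data were seen (0.0874). Dpp10 missed it without LGd replicate 1, 2, 4 or 5 (0.0513 to 0.0974) or LP replicate 2, 5, 6 or 7 (0.0507 to 0.0699), and with LP and LGd fitted alone (0.0720). Kcnip1 was called higher in LP (adjusted p = 0.029), on reads in 2 of 9 LP libraries (25.6 and 2.88 CPM) and none in LGd. Its mean was at least 65.2-fold higher in LP by a floor of 3 counts over the LGd libraries. That call was lost without LP replicate 7 (adjusted p = 0.219), without any 1 LGd library (0.0698 to 0.0801) and in limma-voom with the animal as a random block (0.681).

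The other pairs had 1 call or none. VM against VL (1.69% of genes called) differed in Kcnd3, with 144 ± 49.5 CPM in VM and 325 ± 63.2 CPM in VL (log2 -1.18, SE 0.27, adjusted p = 0.00541). VM libraries, at 202 CPM or less, did not overlap VL, at 257 CPM or more, and the call held in all 20 recomputations. On the shared date Kcnd3 averaged 144 CPM in 4 VM libraries and 351 CPM in 4 VL libraries. VA against VL (2.21% called) had none called, 2 at an unadjusted p under 0.05 and 1 by DESeq2, Kcnd3, with 183 ± 80.2 CPM in VA and 325 ± 63.2 CPM in VL (log2 -0.83, adjusted p = 0.0552 by edgeR). The share of all genes at an unadjusted p or by DESeq2 is not given for VA against VL. VA against VM (0.127% called) had none by edgeR, none at an unadjusted p under 0.05 and none by DESeq2.

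PO against VB (2.65% called) differed in Kcnip2, with 3.83 ± 5.47 CPM in PO and no read in VB, at least 62.6-fold higher in PO by the floor over the VB libraries (adjusted p = 0.0398). PO libraries ran from 0 to 13.5 CPM with a median of 1.22, so the groups overlapped at 0. The call was lost without any 1 VB library (adjusted p 0.104 to 0.118), without PO replicate 3 (0.0672) or 7 (0.0564), in limma-voom (0.0685), with PO and VB fitted alone (0.0979) and without the libraries high in oligodendrocyte markers, a choice made after the data were seen (0.281).

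Among the striatum-labelled nuclei, SPA had less Dpp6 than the mean of CL, PCN and CM, with 108 ± 21.5 CPM in SPA and 183 CPM as the mean of the 3 (log2 -0.75, SE 0.21, adjusted p = 0.0285; 3.44% of genes called). SPA libraries held 134 CPM or less and CL, PCN and AAV-traced CM libraries 135 CPM or more, and 1 DiI-traced CM library held 102 CPM. The call was lost without SPA replicate 1, 2 or 3 (adjusted p 0.12, 0.161 and 0.0717) or PCN replicate 4 (0.052), and the groups shared no amplification date. PVT (2.18% called), IMD (2.75%) and PF (0.0605%) had none of the 8 called by edgeR or DESeq2, and 3, 1 and 1 at an unadjusted p under 0.05. The share of all genes at an unadjusted p is not given for these comparisons. The PVT libraries disagreed in Kcnip3, as given above, and without replicate 2 Kcnip3 was called lower in PVT (log2 -4.22, adjusted p = 0.00394).

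Set against the mean of the other 21 nuclei, each nucleus had at least 1 of the 8 genes called. Of 176 gene-by-nucleus tests 55 were called, 38 higher and 17 lower, against 12% of gene-by-nucleus tests over all genes, a share that ran from 3.05% in IAD to 31.6% in MD. These contrasts share libraries, and they average log values, in which nuclei at or near 0 weigh heavily. For Kcnip1 that raises the fitted difference of nuclei with few reads, and MD was called higher with 7.47 CPM, against a plain mean of 17.6 CPM in the other 21. No fold is given from these contrasts for Kcnip1, Kcnip2 and Kcnip3.

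Kcnd3 was called in 11 nuclei, higher in AV, LD, LGd, PO, VB and VL and lower in CL, IMD, RE, SPA and VPMpc. The largest differences were those of VB, with 444 CPM, against 224 CPM in the other 21, and IMD, with 95.6 CPM, against 240.2 CPM (log2 -1.17). Kcnd2 was called in 5, higher in AM, MD and VPMpc and lower in AD and RE. RE had 121 CPM of Kcnd2, against 252 CPM in the other 21 (log2 -1.02), and AD had 129 CPM, against 252 CPM (log2 -0.92).

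Kcnip4 was called higher in AV, LD, MD, PO and VPMpc and lower in IMD, PF and PVT. MD had 739 CPM of it, against 346 CPM in the other 21 (log2 1.18, SE 0.14), and PVT had 189 CPM, against 372 CPM (log2 -0.89, SE 0.25). Kcnip3 was called higher in LD, LGd, LP, MD, PO, VB and VL and lower in AD, PF and RE. Kcnip1 was called higher in the 7 striatum-labelled nuclei and in RE and MD. Kcnip2 was called higher in IMD and RE and lower in VB.

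Dpp6 was called higher in VL, VM, VA and LGd and lower in SPA. VL had 364 CPM, against 225 CPM in the other 21 (log2 0.74, SE 0.14), and SPA had 108 CPM, against 237 CPM (log2 -1.09, SE 0.20). Dpp10 was called higher in IAD and VPMpc and lower in IMD and LP. LP had 220.0 CPM, against 368 CPM in the other 21 (log2 -0.72, SE 0.12).

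Of these 55 calls 34 held under all alternatives that were run for them. Libraries were left out in turn for the nuclei with 3 to 5 libraries, which hold 30 of the calls, and 14 of these were lost without 1 library. Lost without any 1 library of their own nucleus were Dpp10 in IAD (adjusted p 0.194 to 0.260) and IMD (0.0504 to 0.113), Dpp6 in LGd (0.0577 to 0.138), Kcnip3 in PF (0.0551 to 0.233), Kcnd3 in SPA (0.0832 to 0.144) and Kcnip2 in VB (0.0548 to 0.0636). Kcnd2 in AM was lost without replicate 1, 2 or 3 (up to 0.920), Kcnd3 in CL without 1 or 3 (up to 0.110), Kcnip2 in IMD without 1, 3 or 4 (up to 0.119) and Kcnip4 in IMD without 3 or 4 (up to 0.108). Kcnip3 in LD was lost without replicate 5 (0.225), Kcnip4 in LD without 3 (0.1005), in PF without 1 or 2 (up to 0.0713) and in PVT without 2 (0.124). A further 7 calls were lost under another setting of the fit. They were Kcnd2 in MD (replicate block, sex as a term or limma-voom; adjusted p up to 0.128), Kcnd3 in RE (block, sex, or without the libraries high in oligodendrocyte markers; up to 0.0748), Kcnd3 in PO (sex or DESeq2; up to 0.163) and Kcnip1 in MD (sex or limma-voom; up to 0.846). The others were Kcnip3 in RE (limma-voom, 0.0567), Kcnip3 in VL (block, 0.109) and Kcnd3 in VPMpc (block, 0.0641). Kcnip3 was called lower in PVT once replicate 2 was left out (log2 -4.36). The Kcnip1 calls of the 7 striatum-labelled nuclei held in each of these recomputations.

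Among the nuclei of each class the levels of some members ran together or apart. These correlations are over nucleus means of log2 CPM, whose points share libraries' depth and dates, and are given as descriptions. Kcnd3 and Kcnip1 had r = -0.61 over the 15 cortex-labelled nuclei (rho = -0.66; r = -0.79 without the 2 nuclei farthest from the median of Kcnd3). Kcnd3 and Kcnip2 had r = -0.72 over the cortex-labelled nuclei (rho = -0.73; -0.65 without 2), and Kcnip1 and Kcnip2 had r = 0.69 (rho = 0.75; 0.74 without 2). Kcnd2 and Kcnip3 had r = 0.55 there, which rests on 2 nuclei, since it was -0.12 without them. Kcnd2 and Kcnd3 had r = -0.03 over the cortex-labelled nuclei (rho = -0.18, and r = -0.43 without 2). Kcnip1 was at 0 in 54 and Kcnip2 in 33 of the 90 libraries labelled from cortex, so values at the floor weigh in their correlations. Over the 7 striatum-labelled nuclei Kcnd3 and Kcnip1 had r = -0.55 (rho = -0.57; r = -0.90 without 2). Larger values there were those of Kcnip1 and Dpp10 (r = -0.98, rho = -0.93; r = -0.98 without 2) and Kcnd2 and Dpp10 (r = 0.82, rho = 0.86; 0.63 without 2). Kcnd2 and Kcnip1 had r = -0.79 over these nuclei (rho = -0.86; -0.48 without 2). There Kcnd3 and Kcnip2 had r = -0.25 (rho = 0.04), and Kcnip1 and Kcnip2 had r = 0.49 (rho = 0.25).

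The genes whose nucleus means followed each member most closely were taken from the 3 highest Pearson r over 22 nuclei among 10558 genes. These r span both classes, so a class difference that a gene shares with a member can carry them. They were not computed within a class. Kcnip1 was followed by Lypd6 (r = 0.967), a Ly6-family modulator of nicotinic receptors, Mc3r (0.953), the melanocortin 3 receptor, and Synpr (0.950), the vesicle protein synaptoporin. Kcnip3 was followed by Kcnq3 (0.913), an M-current channel subunit, and Rasgef1b (0.871). Both had their lowest mean in AD, as Kcnip3 did. Kcnq3 had 52.6 CPM in AD and 3114 CPM in LD.

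Kcnd3 was followed by Osbpl3 (r = 0.896), Kdm7a (0.887), a histone demethylase, and Stat6 (0.884). Kcnip4 was followed by Ppp3cb (0.904), a calcineurin catalytic subunit, and Crebbp (0.902), a histone acetyltransferase. Kcnip2 was followed by Impact (0.941), Nppc (0.914), the precursor of C-type natriuretic peptide, and Ak4 (0.912). Kcnd2 was followed less closely, by Nell2 (0.783), Endou (0.775) and Tmc7 (0.774), as were Dpp6, by Abhd6 (0.841), Ly6e (0.812) and Kcmf1 (0.809), and Dpp10, by Nf1 (0.683) and Ppp5c (0.662).

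Other genes of the A-type current and its partners were read against all genes, of which 55.1% differed across the 22 nuclei and, between the classes, 8.58% were higher and 9.8% lower in striatum-labelled nuclei. Of 7 A-type pore and beta subunits, all 7 differed across the 22 nuclei and 2 were lower in striatum-labelled nuclei, with a median log2 difference of -0.53. Kcnab3, a Kv beta subunit, had 7.37 ± 6.20 CPM in striatum-labelled and 51.5 ± 68.1 CPM in cortex-labelled nuclei (log2 -2.81, adjusted p = 0.0199). Across nuclei Kcnab3 ran from 1.30 ± 1.517 CPM in VPMpc to 237 ± 73.7 CPM in VB. Kcnab2, another Kv beta subunit, had 89.5 ± 37.5 CPM in striatum-labelled and 124 ± 78.4 CPM in cortex-labelled nuclei (log2 -0.47, adjusted p = 0.394). Kcnd1, the Kv4 pore gene outside the 8, which was chosen after its values were seen, had 23.4 ± 7.74 CPM in striatum-labelled and 42.8 ± 32.9 CPM in cortex-labelled nuclei (log2 -0.88, adjusted p = 0.103).

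Of 15 reported Kv4 partners and kinases 12 were measured, 11 differed across the nuclei, and in striatum-labelled nuclei 1 was higher and 1 lower, with a median log2 difference of 0.01. Cacna1i, a low-threshold calcium channel, had 59.2 ± 15.3 CPM in striatum-labelled and 4.47 ± 6.71 CPM in cortex-labelled nuclei (log2 3.72, adjusted p = 0.00182). Camk2a, the alpha subunit of a calcium-dependent kinase, had 355 ± 35.1 CPM in striatum-labelled and 628 ± 191 CPM in cortex-labelled nuclei (log2 -0.83, adjusted p = 0.0159). Of 4 peptidase relatives of DPP6 3 were measured, 3 differed across the nuclei, and 2 were lower in striatum-labelled nuclei, with a median log2 difference of -0.44. Dpp8 had 144 ± 10.3 CPM in striatum-labelled and 195 ± 42.5 CPM in cortex-labelled nuclei (log2 -0.44, adjusted p = 0.0204). Dpp4 had 4.66 ± 2.11 CPM in striatum-labelled and 12.6 ± 9.85 CPM in cortex-labelled nuclei (log2 -1.44, adjusted p = 0.0435). Dpp9 had 55.9 ± 17.8 CPM in striatum-labelled and 61.5 ± 14.7 CPM in cortex-labelled nuclei (log2 -0.14, adjusted p = 0.614).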

How the data were processed

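RNA of hand-sorted neurons was amplified with Ovation RNA-seq v2, a kit that does not mark strand, per the labels' protocols. The table the authors deposited holds raw read counts per gene, in whole numbers and not normalized. The submitters' processing notes name cutadapt 1.16, STAR 2.5.3a, featureCounts 1.52 and the build mm10. Their settings are not given in the sources used here.

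Counts were fitted with edgeR 4.0.16 (quasi-likelihood, TMM scaling) over 120 libraries as 24 groups, after its expression filter (minimum count 10, minimum total 15), which kept 16527 of 16538 genes. CM stood for its AAV group and AM for its DiI group among the 22 nuclei. Adjusted p-values are Benjamini-Hochberg values over all genes tested in a comparison, called under 0.05. CPM used TMM-scaled library sizes. Levels per kilobase used the exon union of GENCODE M21, matched for 16495 identifiers. The classes of nuclei were compared over count sums per nucleus.

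The libraries came from 87 recorded animals or pools and 14 amplification dates, and no 2 of a group agreed within sampling noise. AM and RE replicates 1 to 4 came from the same animals, so the number pairs them; their deviations from the group means correlated at -0.04 to 0.07. PCR reads without molecular identifiers are not independent molecules, so the floor of 3 counts covers counting error only.

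The named genes are the 8 members, the 3 genes closest to each (highest nucleus mean at least 10 CPM) and the 3 of each pathway list with the largest F. Some genes that this rule names are not reported here. The members and lists were chosen with earlier results of these data known. Alternatives were RLE size factors, no filter, a replicate block, sex as a term, limma-voom (limma 3.58.1) with the animal as random block, DESeq2 1.42.0, the compared groups alone, CM from its DiI libraries, shared dates, limma on nucleus means, and leaving out libraries or nuclei. The fits were tested on simulated data.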

Additional observations from a re-analysis of the deposited data

Results flagged for a closer look

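A single library stood apart from the others of its nucleus, by Dixon's criterion, in 21 of 156 combinations of gene and group with 4 to 10 libraries. Chance flags about 1 in 20 such groups, and a group in which nearly all libraries are at 0 meets the criterion with few reads.

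LP replicate 1 had 543 CPM of Kcnip4, where the next LP library had 389.8 CPM, and 406 CPM of Dpp10, where the next had 236 CPM. VPMpc replicate 2 had 676 CPM of Dpp10, where the next had 515 CPM. The 4 oligodendrocyte markers summed to 841 CPM in that LP library and 273 CPM in that VPMpc library, and their part in these values was not tested. VL replicate 5 stood apart in 3 genes, with 484 CPM of Dpp6 (next 369 CPM), 204 CPM of Kcnip3 (next 86.0 CPM) and 6.47 CPM of Kcnip2 (next 0.354 CPM).

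In the pore genes, Kcnd2 was low in AV replicate 1 (90.2 CPM, where the next AV library had 239 CPM), LP replicate 2 (117 CPM, next 209.9 CPM) and VPMpc replicate 5 (283 CPM, next 340.2 CPM). Kcnd3 was high in RE replicate 1, at 191 CPM, where the next RE library had 153 CPM.

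Kcnip1 stood out in AV replicate 6 (1.25 CPM), LP replicate 7 (25.6 CPM), MD replicate 2 (30.3 CPM), PO replicate 6 (10.9 CPM) and VB replicate 4 (1.73 CPM). Kcnip2 stood out in AD replicate 1 (1.27 CPM), AV replicate 8 (2.76 CPM), LD replicate 5 (0.380 CPM), LP replicate 6 (7.89 CPM), MD replicate 4 (15.4 CPM) and RE replicate 3 (46.1 CPM).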

How the results depend on the processing

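The count of members called across the 22 nuclei was 8 under each alternative run. Over the 15 pairs it was 16, and 12 with the replicate block, 15 with sex as a term, 16 with RLE size factors, no filter or the compared groups alone, 18 with limma-voom and 23 with DESeq2. It ran from 12 to 17 when libraries were left out in turn, and was 13 without the 12 libraries whose oligodendrocyte markers summed to over 200 CPM, an alternative chosen after the data were seen. For 1 nucleus against the other 21 the count was 55, from 43 with sex as a term to 65 with limma-voom, with 52 to 55 when libraries were left out. Between striatum-labelled and cortex-labelled nuclei 4 members were called, 2 within the 2 shared dates (fewer samples and 3 cortical nuclei), 5 with limma on nucleus means, 3 to 5 when a nucleus was left out and 4 otherwise. The CM tracer comparison called 0 members in each recomputation.

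Single values were recomputed 1680 times: those of the F test, the class and the tracer comparison, and the called ones of the pairs and of 1 nucleus against the other 21. Of these 1533 kept their side of the threshold, 145 lost it, 2 gained it and 0 changed direction with a call before or after. Values without a call did change sign, such as the class difference of Kcnd2, which ran from -0.27 to 0.13. Calls gained among the pairs and nuclei with none before are not in these numbers. Over all genes DESeq2 called 14545 gene-by-pair differences, against 6581 by edgeR, and 473 in the CM tracer comparison, where edgeR called 1, limma-voom 26 and a fit of the CM groups alone 12. Striatum-labelled against cortex-labelled nuclei gave 874 genes within the shared dates and 2837 over all nuclei; the cause of these changes was not tested beyond the sample numbers.

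With the replicate block the calls for Kcnd3 (adjusted p = 0.169), Kcnip1 (0.186) and Dpp10 (0.0556) in LP against LGd, Kcnip2 in PO against VB (0.0552) and Kcnd3 in RE against IAD (0.0517) were lost, and Kcnip1 in AM against RE was gained. Same-numbered libraries came from 1 animal for all 4 numbers of AM and RE, for 3 of 6 in VM and VL, 3 of 4 in IMD and CL, 2 of 4 in AD and AV, 1 in VA and VM and 1 in VA and VL, and for none in the other pairs, some of which share animals under different numbers. Deviations of same-numbered libraries correlated at -0.08 to 0.07 over all pairs. No pair of nuclei, AM and RE included, was tested on differences within animals, and the animal entered only as a random block in limma-voom. In the comparison of striatum-labelled with cortex-labelled nuclei no pairing was possible, because sums per nucleus carry no replicate numbers. Depth limits Kcnip1, Kcnip2 and Kcnip3 in the nuclei where most libraries hold few or no reads.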
